A study of Mus musculus with 6 samples.

Results

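The genes described here are the core of the canonical Wnt pathway and the genes that answer to it, as measured by RNA-seq in cultured mouse cerebellar granule cells (GCs) after knockdown (KD) of YTHDF2, a reader of the RNA modification m6A. They were listed by name for their roles in the pathway: Ctnnb1, Gsk3b, Apc and Axin2 of the core, the transcription factors Lef1, Tcf7, Tcf7l1 and Tcf7l2, and the feedback genes Nkd1 and Apcdd1. All 10 were found among the 53421 genes of the count table, and 9 of them passed the filter on low counts that left 17214 genes to be tested.

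The 6 libraries came from GCs of C57BL/6 mice at postnatal day 8. The neurons were dissociated from the cerebellum, cultured, infected with lentivirus and selected with puromycin, and both groups share these steps. The 3 shYthdf2 libraries carried a short hairpin RNA against Ythdf2 and the 3 shCtrl libraries a control hairpin. Only 1 hairpin against Ythdf2 was sequenced, so an effect of the hairpin's sequence cannot be told apart from an effect of the KD. Their names number them 1, 2 and 4 within a group, and replicate 3 stands here for number 4. The labels do not say whether they are separate cultures, and the p-values measure the spread between these libraries.

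The library names contradict the sample titles and genotype labels on which 3 libraries are the KD. The names were followed. If the titles were right, every direction given here would be inverted. With the names, Ythdf2 stood at 501, 402 and 501 normalized counts in the shYthdf2 libraries and at 618, 841 and 628 in the shCtrl libraries. The level in shYthdf2 was 67.3% of that in shCtrl, with every KD library below every control, and the difference did not pass the test (log2 fold change -0.57, edgeR adjusted p = 0.125). The libraries held 17246821 to 21546595 counts. Replicate 2 of both groups stood apart. On the first principal component, which held 44.7% of the variance, shCtrl replicate 2 was at -28.4, among the shYthdf2 libraries at -36.4 to -20.3 and away from the other controls at 51.7 and 55.1. On the second, with 31.8%, replicate 2 of shYthdf2 and of shCtrl was at -24.8 and -46.8 and the others between -7.74 and 42.6. Results that rest on replicate 2 are given with and without it. Granule cell markers summed to 8185 to 9261 CPM (reads scaled to a common depth) in the 6 libraries. Gabra6, a GABA receptor subunit of mature GCs, had 371 to 1400 counts, and Cbln1, the precursor of a synaptic organizer that GCs secrete, had 11509 to 26319 counts.

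β-catenin, the product of Ctnnb1, is held at a low level in the cytoplasm by a destruction complex in which Axin and Apc form the scaffold and casein kinase and Gsk3 phosphorylate β-catenin for its removal. When Wnt ligands bind Frizzled and Lrp receptors, this complex is inhibited, and β-catenin enters the nucleus and joins the TCF/LEF factors on DNA. Genes switched on in this way include Axin2, Nkd1 and Apcdd1, which feed back to restrain the pathway. RNA of Ctnnb1, Gsk3b and Apc is a poor measure of pathway activity, because β-catenin is controlled mainly as a protein, whereas Axin2 RNA is a common readout of it. In the cerebellum, Wnt signals act on the growth of axons and on the forming synapses of GCs.

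After YTHDF2 KD, 0 of the 9 members tested passed the adjusted threshold of 0.05 in edgeR, beside 0.604% of all genes. In DESeq2 0 of the 8 members with an adjusted p passed it, beside 8.5% of all genes, and in limma-voom 0 of 9, beside 0.139%. At an unadjusted p under 0.05, 1 member passed, Axin2, against 20.1% of all genes. Axin2 was also the only member whose groups did not overlap, against 26.0% of all genes. Of the 9 members, 5 had a higher and 4 a lower estimate in shYthdf2, and their median log2 fold change was 0.15, beside 0.01 for all genes tested. This median depended on single controls. It was 0.01 without shCtrl replicate 1 and 0.0089 without shCtrl replicate 3, 0.29 without shCtrl replicate 2, 0.36 without replicate 2 of both groups and 0.05 without the filter. Ctnnb1, Gsk3b and Apc lay within 0.05 of 0 on the log2 scale, and the estimates of Tcf7l2 and Apcdd1 were the farthest from it.

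Sequences of Axin2 are shown first, since it was the only member past the unadjusted threshold and its RNA is the usual readout of the pathway. TCF/LEF factors bind DNA at sites that contain CTTTGAT or, less strictly, CTTTGTT. Promoter windows from RefSeq, which reach from 250 bases before to 50 bases after a start site on GRCm38.p6, were matched to 8 of the 10 members (14 windows) and to neither Apc nor Apcdd1. CTTTGAT was found on either strand in 0 of the 14 windows and in 3.73% of all 32851 windows. CTTTGTT was found in 1 of the 14, at a downstream start of Tcf7l2, and in 5.85% of all windows. A missing match says only that these letters are not in the window. The bases before the start of Axin2 (chr11:108920099-108920348, + strand), which hold neither motif, and those before the downstream start of Tcf7l2 (chr19:55895071-55895320, + strand), with CTTTGTT in capitals, read:
Axin2: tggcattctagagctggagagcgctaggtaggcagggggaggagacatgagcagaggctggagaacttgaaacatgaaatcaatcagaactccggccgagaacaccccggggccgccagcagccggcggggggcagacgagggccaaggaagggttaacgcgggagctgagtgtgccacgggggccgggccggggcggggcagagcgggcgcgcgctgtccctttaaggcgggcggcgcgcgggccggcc
Tcf7l2: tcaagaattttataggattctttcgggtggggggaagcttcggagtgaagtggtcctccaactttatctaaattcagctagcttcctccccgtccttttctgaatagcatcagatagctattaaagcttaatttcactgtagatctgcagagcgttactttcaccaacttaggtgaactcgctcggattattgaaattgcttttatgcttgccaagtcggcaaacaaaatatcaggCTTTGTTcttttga

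YTHDF2 binds m6A, which is placed mostly in a short consensus, and GGACT is its commonest form. The longest coding transcript of Axin2 in GENCODE (4260 bases, + strand of chromosome 11) holds GGACT at 5 places, 4 in the coding part of exon 2 and 1 in the 3′ UTR in the last exon. These are written below in order, with 8 bases on each side and GGACT in capitals. They start at bases 530, 636, 673, 989 and 3021 of the transcript, and the first and the last lie at chr11:108923468-108923472 and chr11:108949544-108949548 on GRCm38. Whether any of them carries m6A was not measured here.
Axin2 site 1: atgaagatGGACTgggggagc
Axin2 site 2: cctcttccGGACTttcctgga
Axin2 site 3: gatacgctGGACTtctggttt
Axin2 site 4: gtaacgggGGACTggggagcc
Axin2 site 5: ctagggagGGACTggcgcctg

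The members differed in how dense these letters are. Over 13719 tested genes with a coding transcript, the median was 1.05 GGACT per kilobase, with quartiles of 0.656 and 1.52. Tcf7l1 held 1.97 per kilobase and Ctnnb1 1.93, above 88.4% and 87.5% of the tested genes. Axin2 held 1.17 per kilobase, near the middle. Apc held 0.624 and Lef1 0.287 per kilobase, the lowest among the members. The 7 occurrences in Ctnnb1 were all in the coding sequence, and 8 of the 9 in Gsk3b were in the 3′ UTR.

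The members spanned a wide range of levels. Levels were compared per length, as normalized CPM per kilobase of the gene's exons. This length takes in all annotated exons, and no single transcript need hold all of them. For Tcf7l2 and Lef1 it was 8775 and 8788 bases, against 3715 and 3482 in the longest coding transcript. The order of the TCF/LEF genes depends on this choice of length. In the shCtrl libraries, Apc stood at 45.0 ± 3.11, Ctnnb1 at 41.7 ± 4.13, Gsk3b at 37.2 ± 1.56 and Nkd1 at 28.8 ± 9.67 CPM per kilobase (SD, n = 3). Axin2 followed at 11.0 ± 0.206 CPM per kilobase. The core of the pathway and Nkd1 thus lay in the upper part of all genes tested, above 88.6% to 93.7% of them, and Axin2 above 71.0%. Apcdd1 stood at 1.13 ± 0.554, Tcf7l1 at 0.970 ± 0.265, Tcf7 at 0.330 ± 0.116 and Tcf7l2 at 0.221 ± 0.118 CPM per kilobase, and Lef1 was lowest at 0.0290 ± 0.00735. In this order the libraries of Ctnnb1 and Gsk3b, of Nkd1 and Axin2, of Axin2 and Apcdd1, of Tcf7l1 and Tcf7, and of Tcf7l2 and Lef1 did not overlap. The other neighbours overlapped: Apc with Ctnnb1, Gsk3b with Nkd1, Apcdd1 with Tcf7l1, and Tcf7 with Tcf7l2.

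**Figure D1:**
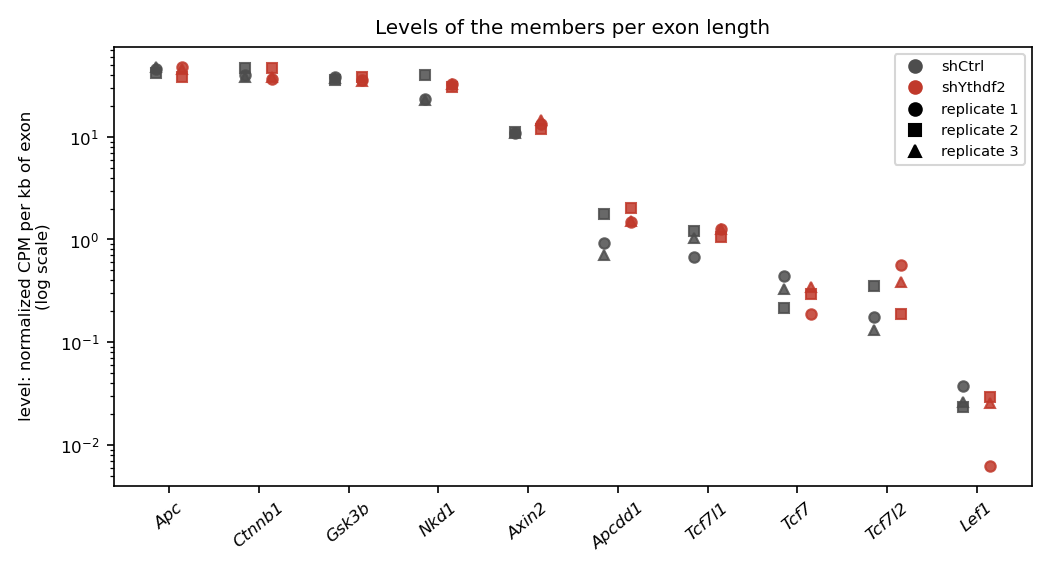
Level of each member in normalized CPM per kilobase of exon on a log axis, with 1 point for each of the 3 shCtrl (grey) and 3 shYthdf2 (red) libraries and the members ordered by their shCtrl mean. Apc, Ctnnb1, Gsk3b, Nkd1 and Axin2 lie above 10, the other 5 members near 2 or below, and Lef1 below 0.05.

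Ctnnb1 encodes β-catenin itself (ENSMUSG00000006932, chromosome 9 from 120929216 to 120960507 on GRCm38). It had 3612, 4606 and 3756 normalized counts in shYthdf2 replicates 1, 2 and 3 and 3948, 4566 and 3799 in shCtrl. Replicate 2 was the highest library in both groups, and the groups overlapped. The log2 fold change was -0.04 with an SE of 0.13 and a 95% interval from -0.34 to 0.26 (edgeR adjusted p = 0.890). The sign of this estimate turned with the choice of libraries: it was 0.03 without shYthdf2 replicate 1, 0.0026 without shYthdf2 replicate 3 and 0.04 without shCtrl replicate 2. The exons share 759 bases with Ulk4 on the opposite strand, which had at most 42 counts where Ctnnb1 had at least 3454.

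Gsk3b encodes a kinase that marks β-catenin for degradation (ENSMUSG00000022812, chromosome 16 from 38089001 to 38246084). In shYthdf2 it had 6716, 7071 and 6471 normalized counts, and in shCtrl 7157, 6607 and 7046. The 2 groups overlapped, and the libraries of a group differed by little, with a coefficient of variation of 4.47% and 4.20%. Its log2 fold change was -0.04 with an SE of 0.09 and an interval from -0.25 to 0.18 (edgeR adjusted p = 0.846), the narrowest among the members.

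Apc encodes the large scaffold of the destruction complex (ENSMUSG00000005871, chromosome 18 from 34220924 to 34322552). It had 14534, 11763 and 14051 normalized counts in shYthdf2 and 13860, 12766 and 14660 in shCtrl. Replicate 2 was the lowest library of both groups. For Apc the log2 fold change was -0.03 with an SE of 0.12 and an interval from -0.31 to 0.24 (edgeR adjusted p = 0.903). The estimate was 0.002 with library sizes unscaled, 0.05 without shYthdf2 replicate 2 and 0.0089 without shCtrl replicate 3.

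Axin2 encodes the inducible scaffold of the same complex (ENSMUSG00000000142, chromosome 11 from 108920349 to 108950783). The shYthdf2 libraries held 1405, 1247 and 1525 normalized counts and the shCtrl libraries 1129, 1172 and 1149. Each KD library was above each control, and the controls lay close together, with 1150 ± 21.5 normalized counts against 1392 ± 140 (SD, n = 3). The mean in shYthdf2 was 121% of that in shCtrl, and a two-sided exact permutation test gave p = 0.1, which no split of 3 against 3 can undercut. The edgeR estimate on the log2 scale was 0.28 with an SE of 0.10 and an interval from 0.03 to 0.52 (unadjusted p = 0.0321 and adjusted p = 0.203 by edgeR). Over 15 alternatives, the adjusted p lay between 3.23e-05 and 0.555 and the estimate remained above 0. It was smallest within replicate 2, where the log2 difference between the same-numbered libraries was 0.09, against 0.32 and 0.41 in replicates 1 and 3. Reads from Gm11670, which overlaps 209 exonic bases on the opposite strand, were counted at most 19 times.

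**Figure D2:**
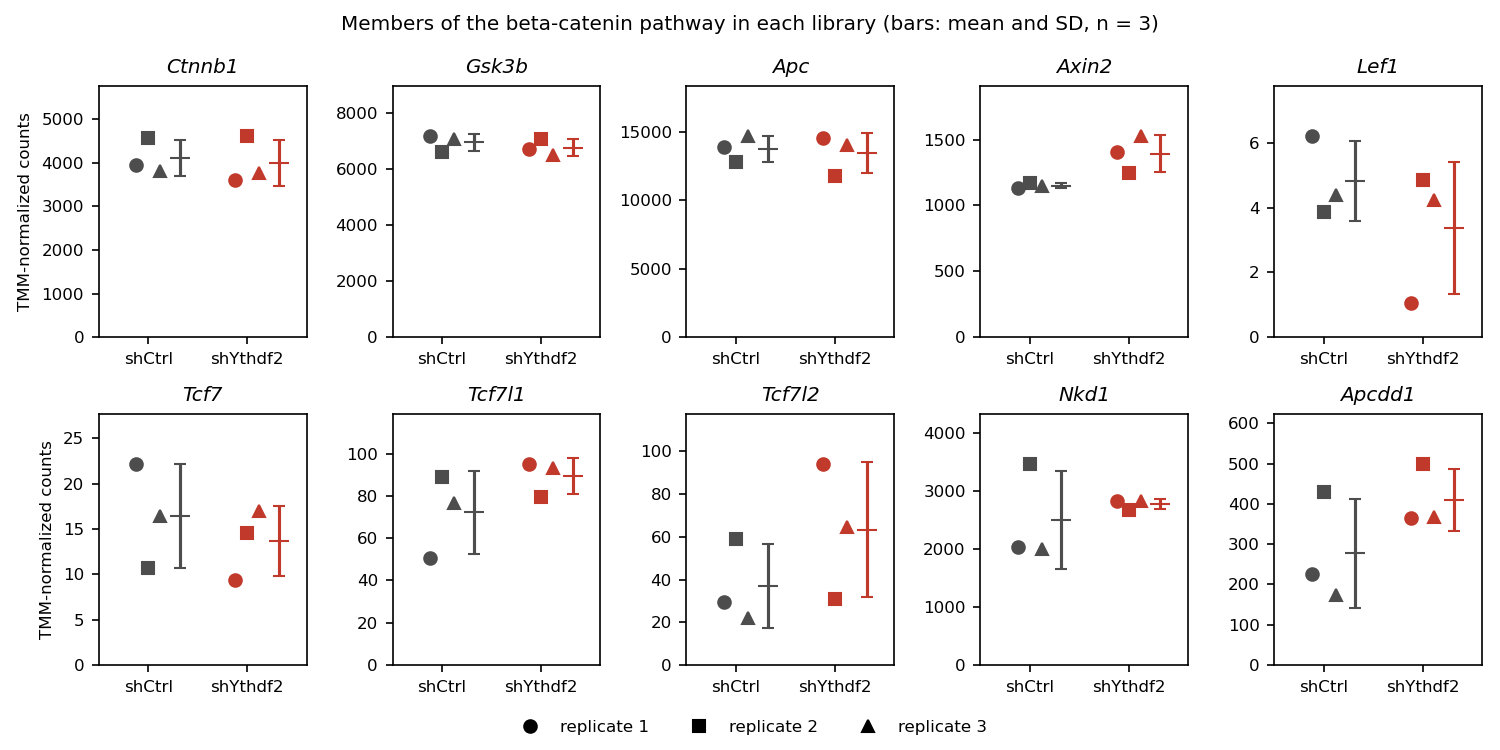
Normalized counts of the 10 members in each library, 1 panel per gene with axes from 0, shCtrl in grey and shYthdf2 in red, marker shape for the replicate and bars for the mean and SD (n = 3). The groups are apart in the panel of Axin2, while replicate 2 of shCtrl (square) lies above the other controls for Nkd1, Apcdd1 and Tcf7l2.

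The TCF/LEF factors carry the response to DNA, and all 4 genes had few reads. Lef1 (ENSMUSG00000027985, chromosome 3 from 131110471 to 131224356) had 1, 5 and 4 counts in shYthdf2 and 7, 4 and 4 in shCtrl. It was removed by the filter, and a difference was not detectable at this depth. Tcf7 (ENSMUSG00000000782, chromosome 11 from 52252371 to 52283014) had 9, 15 and 16 counts in shYthdf2 and 25, 11 and 15 in shCtrl. Its groups overlapped, and the log2 fold change of -0.27 had an interval from -1.22 to 0.68 (edgeR adjusted p = 0.749). Without shCtrl replicate 1, the highest library, the estimate was 0.0094, without shYthdf2 replicate 1 it was -0.06, and without shCtrl replicate 2 it was -0.51.

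Tcf7l1 encodes the family member best known as a repressor (ENSMUSG00000055799, chromosome 6 from 72626378 to 72789254). It had 95.2, 79.5 and 93.4 normalized counts in shYthdf2 and 50.6, 89.1 and 76.9 in shCtrl. The groups overlapped, and shCtrl replicate 1 was the lowest library. For Tcf7l1 the log2 fold change was 0.31 with an SE of 0.26 and an interval from -0.30 to 0.92 (edgeR adjusted p = 0.552). It was 0.10 without shCtrl replicate 1 and 0.49 without shCtrl replicate 2.

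Tcf7l2 is known, among other roles, from the oligodendrocyte lineage (ENSMUSG00000024985, chromosome 19 from 55741820 to 55933654). The shYthdf2 libraries held 94.1, 31.0 and 64.7 normalized counts and the shCtrl libraries 29.3, 59.1 and 22.0. Replicates 1 and 3 were higher in shYthdf2 and replicate 2 was lower, with log2 differences of 1.69, -0.93 and 1.56 between the same-numbered libraries. The log2 fold change of 0.78 had the largest size among the members and a wide interval from -0.40 to 1.95 (edgeR adjusted p = 0.435). With single libraries left out it ranged from 0.37, without shYthdf2 replicate 1, to 1.29, without shCtrl replicate 2, and it was 0.51 without shCtrl replicate 3.

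Per length, the 4 factors together reached 1.58 to 2.04 CPM per kilobase in the shYthdf2 libraries and 1.34 to 1.79 in the shCtrl libraries, and these ranges overlapped. Tcf7l1 made up the largest share of this sum in every library, between 50.8% and 67.9%, and Lef1 at most 2.78%. These shares rest on the length of all annotated exons. Before division by length, Tcf7l1 and Tcf7l2 had 91 and 90 counts in shYthdf2 replicate 1. The level of Ctnnb1 RNA per kilobase was 18.0 to 30.0 times the level of the factors together.

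**Figure D3:**
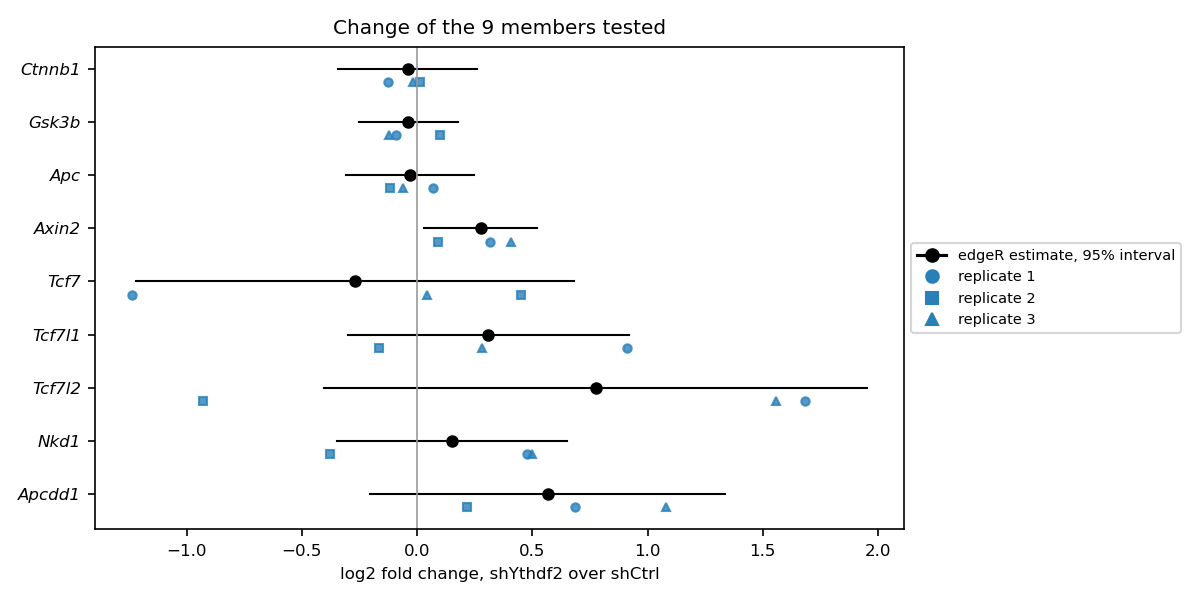
Log2 fold change of the 9 members tested, shYthdf2 over shCtrl, as the edgeR estimate with its 95% interval (black) and as the difference between same-numbered libraries (blue, shape for the replicate). The interval of Axin2 lies above 0, the other 8 intervals include it, and replicate 2 (square) lies on the other side of 0 from replicates 1 and 3 for Ctnnb1, Gsk3b, Tcf7l1, Tcf7l2 and Nkd1.

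Nkd1 encodes an inhibitor that binds Dishevelled (ENSMUSG00000031661, chromosome 8 from 88521354 to 88594884). It had 2817, 2664 and 2823 normalized counts in shYthdf2 and 2025, 3458 and 1997 in shCtrl. The KD libraries were nearly level, with a coefficient of variation of 3.25%, while the controls varied by 33.5%, and shCtrl replicate 2 was the highest of all 6 libraries. For Nkd1 the log2 fold change was 0.15 with an SE of 0.21 and an interval from -0.35 to 0.65 (edgeR adjusted p = 0.732). Without shCtrl replicate 2 it was 0.46 (edgeR adjusted p = 0.00945), while without shCtrl replicate 1 or 3 it was 0.01 and 0.0082, and over 15 alternatives the adjusted p lay between 1.26e-08 and 0.992.

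Apcdd1 encodes a membrane protein that inhibits Wnt signalling at the cell surface (ENSMUSG00000071847, chromosome 18 from 62922231 to 62961179). In shYthdf2 it had 365, 499 and 367 normalized counts, and in shCtrl 227, 430 and 174. In each group replicate 2 was the highest, and in each replicate the KD library was above its control, with log2 differences of 0.68, 0.22 and 1.08. The log2 fold change was 0.57 with an SE of 0.33 and an interval from -0.20 to 1.34 (edgeR adjusted p = 0.381). With the replicate number as a block the adjusted p was 0.0940. It passed the threshold with a term that separates replicate 2 from the others (edgeR adjusted p = 0.0432) and without shCtrl replicate 2, where the log2 fold change was 1.03 (edgeR adjusted p = 0.0201). Without shCtrl replicate 3 it was 0.32 (edgeR adjusted p = 0.709), without shYthdf2 replicate 2 it was 0.40 and without shCtrl replicate 1 it was 0.44. Over 15 alternatives the adjusted p lay between 2.47e-05 and 0.709.

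The calls on members at the adjusted threshold turned on replicate 2. The unadjusted call of Axin2 held without shCtrl replicate 2 or shYthdf2 replicate 2 (edgeR unadjusted p = 0.0305 and 0.00636). It was lost without shYthdf2 replicate 1 or 3 (edgeR unadjusted p = 0.0886 and 0.143) and without shCtrl replicate 1 or 3 (edgeR unadjusted p = 0.1045 and 0.0934). Without the filter it was lost too (edgeR unadjusted p = 0.0601). With the replicate block, 0 members passed the adjusted threshold (1.35% of all genes did) and 2 passed at an unadjusted p under 0.05, Axin2 and Apcdd1 (31.6% of all genes). With the term for replicate 2, Apcdd1 passed the adjusted threshold beside 22.1% of all genes, and 2 members passed at an unadjusted p under 0.05 beside 39.5%. Without shCtrl replicate 2, Nkd1 and Apcdd1 passed the adjusted threshold beside 18.3% of all genes, 4 members passed at an unadjusted p under 0.05 beside 34.0%, and 5 had groups that did not overlap, beside 53.9%. Without shYthdf2 replicate 2, 4 members had groups that did not overlap, beside 48.9%. Without replicate 2 of both groups, 2 libraries were left in each, 6 members passed the adjusted threshold beside 52.7% of all genes, and the same number passed at an unadjusted p under 0.05 beside 57.6%. Groups then did not overlap for 7 members, beside 76.0%. The 6 members past the adjusted threshold were Gsk3b, with a log2 fold change of -0.11, and Axin2, Tcf7l1, Tcf7l2, Nkd1 and Apcdd1, with 0.36, 0.58, 1.61, 0.48 and 0.85.

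Some marker lists of other cell types had the same split among the libraries as these members. The oligodendrocyte lineage list summed to 913, 1113 and 938 CPM in shYthdf2 replicates 1, 2 and 3 and to 335, 1183 and 321 CPM in shCtrl, so that shCtrl replicates 1 and 3 were low and replicate 2 was high, as for Nkd1, Apcdd1 and Tcf7l2. Of its 12 genes 11 were tested, all 11 with a higher estimate in shYthdf2. The adjusted threshold was passed by 0, beside 0.604% of all genes, and an unadjusted p under 0.05 by 1, beside 20.1%. Mbp, a protein of myelin, had 2194 to 8916 counts, and Sox10, a factor of the lineage, had 203 to 1027. Astrocyte and Bergmann glia markers summed to 738 to 790 CPM in shYthdf2 and to 506, 870 and 514 in shCtrl replicates 1, 2 and 3. Of these 12 genes, 10 had a higher and 2 a lower estimate, with a median log2 fold change of 0.29. Aqp4, a water channel of astrocytes, had 845, 1939 and 933 normalized counts in shCtrl and 2422, 2100 and 2267 in shYthdf2. Slc1a2, a glutamate transporter on the same list, ran the other way, with 934, 1022 and 878 in shYthdf2 against 3032, 1575 and 3080 in shCtrl (log2 fold change -1.44, edgeR adjusted p = 0.0552). Microglia markers summed to 87.0, 33.1 and 92.7 CPM in shYthdf2 and to 18.4, 70.8 and 16.0 in shCtrl, low in replicate 2 of shYthdf2 and high in replicate 2 of shCtrl, as Tcf7l2 was. Mural cell and fibroblast markers were highest in replicate 2 of both groups, with 643 and 506 CPM against 177 to 250 in the other libraries, and Apcdd1 and Ctnnb1 were also highest there. In each replicate the mural and fibroblast sum was higher in shYthdf2, with 243, 643 and 250 CPM against 179, 506 and 177. All 10 genes tested on this list and all 10 on the microglia list had a higher estimate. On either list 0 passed at an unadjusted p under 0.05, beside 20.1% of all genes. The granule cell sum was more even, but single genes on that list were not. Cbln3 had 290, 1811 and 276 normalized counts in shCtrl and 959, 2240 and 980 in shYthdf2. Cbln1 was also highest in shCtrl replicate 2 but was lower in shYthdf2, and of the 12 genes 8 had a higher and 4 a lower estimate. The part of any of these cell types in the members' values was not tested. In bulk RNA fewer cells of a type and less RNA per cell cannot be told apart.

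The remaining marker lists are given by their ranges over the libraries of a group. Endothelial markers summed to 17.3 to 29.0 CPM in shYthdf2 and 11.3 to 17.2 in shCtrl. Cldn5, which defines endothelial cells of the brain, had at most 1 count, while Pecam1 had 22 to 33. Of the 8 endothelial genes tested, 7 had a higher and 1 a lower estimate, with a median log2 fold change of 0.48. Markers of GABAergic interneurons summed to 426 to 519 CPM in shYthdf2 and 356 to 400 in shCtrl. Gad1 was the most abundant of them (log2 fold change 0.49). Of the 8 GABAergic genes tested, 6 had a higher and 2 a lower estimate, with a median of 0.17. Ependymal cell markers summed to 24.1 to 70.4 and 15.7 to 70.8 CPM, with 1 of the 4 genes tested higher and 3 lower. On the other 3 lists, too, the sum was carried by a few abundant genes and other genes went the other way. Purkinje cell markers summed to 156 to 176 CPM in shYthdf2 and 123 to 135 in shCtrl, with Rora the most abundant (log2 fold change 0.61). But 5 of the 9 genes tested had a lower estimate, among them Pcp2 and Calb1 with -0.22 and -0.45. The median log2 fold change was -0.01. Granule cell progenitor markers summed to 660 to 679 and 769 to 928 CPM, with a log2 fold change of -0.61 for Barhl1 and -0.20 for Ptch1, but 8 of the 10 tested had a higher estimate, Atoh1 and Mki67 with 0.78 and 0.68, and the median was 0.57. Unipolar brush cell markers summed to 399 to 455 and 370 to 418 CPM, with 3 of 6 in each direction. Eomes, which defines these cells, had 360, 642 and 326 normalized counts in shYthdf2 against 1752, 1175 and 1701 in shCtrl (log2 fold change -1.80, edgeR adjusted p = 0.0502). Of the 100 marker genes tested on the 11 lists, 0 passed the adjusted threshold in edgeR, beside 0.604% of all genes. At an unadjusted p under 0.05, 15 passed, beside 20.1% of all genes. By DESeq2 10 of 92 passed the adjusted threshold, beside 8.5% of all genes, and by limma-voom 0, beside 0.139%.

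**Figure D4:**
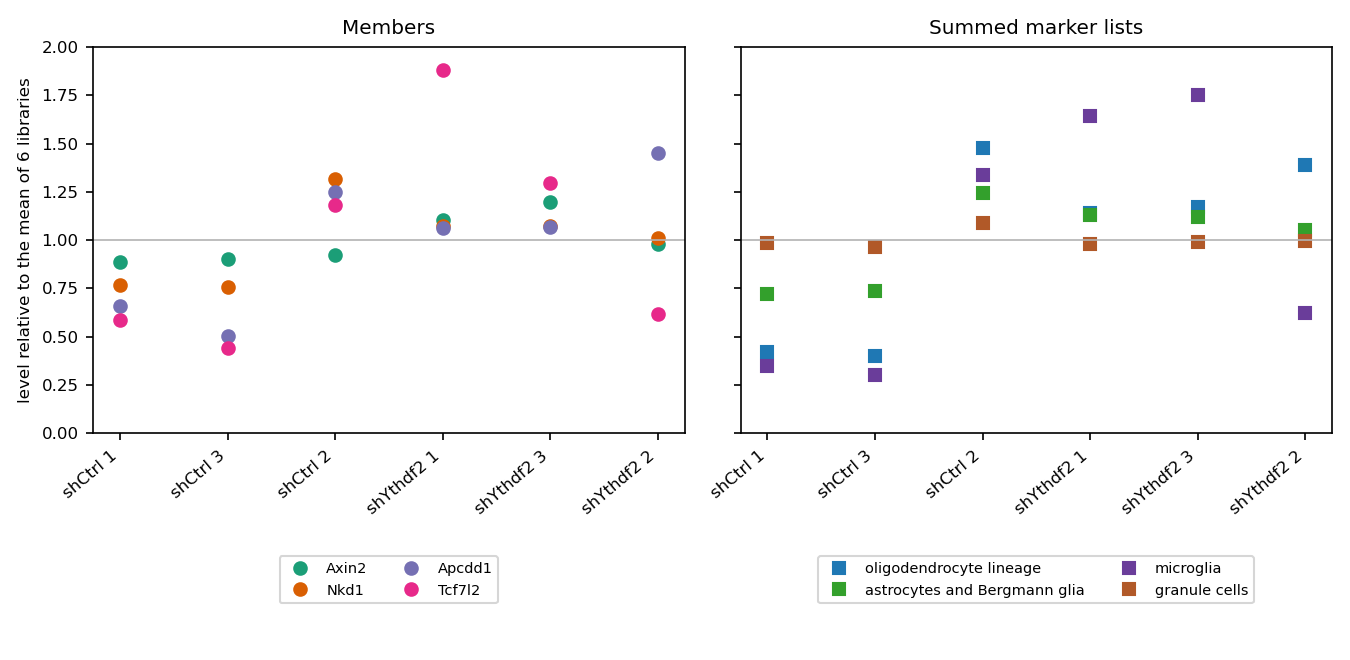
Level in each of the 6 libraries relative to their mean, for 4 members (left, normalized counts) and for the summed CPM of 4 marker lists (right). In shCtrl replicates 1 and 3, Nkd1, Apcdd1, Tcf7l2 and the oligodendrocyte, astrocyte and microglia lists lie below 1. In shCtrl replicate 2 all of them lie above 1. The granule cell sum stays near 1 throughout, which does not hold for single genes on that list, such as Cbln3.

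The other genes of the pathway place the members among their partners. Of the 16 other genes of the destruction complex, all were tested and 0 passed the adjusted threshold in edgeR, DESeq2 or limma-voom. At an unadjusted p under 0.05, 1 was higher and 3 were lower in shYthdf2, beside 9.50% and 10.6% of all genes, and the median log2 fold change was 0.01. Amer2, which recruits Apc to the membrane, had 6319, 5347 and 6192 normalized counts in shYthdf2 and 4757, 4857 and 4718 in shCtrl (log2 fold change 0.32, edgeR adjusted p = 0.146). Axin1, the constitutive scaffold, had 1069, 1134 and 1146 against 1398, 1306 and 1419 (log2 fold change -0.30, edgeR adjusted p = 0.140). Gsk3a, the sister kinase of Gsk3b, had 2277, 2724 and 2462 against 3075, 3200 and 2926 (log2 fold change -0.30, edgeR adjusted p = 0.161).

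Axin1, Gsk3a and Apc2 are paralogs of members, and the ratio of a member to its paralog within a library does not depend on the scaling between libraries. The pairs were chosen after their values were seen and are given without a test. The log2 ratio of Axin2 to Axin1 was 0.40, 0.14 and 0.41 in shYthdf2 and -0.31, -0.16 and -0.30 in shCtrl, so that Axin2 reads outnumbered Axin1 reads in every KD library and in no control. The log2 ratio of Gsk3b to Gsk3a was 1.56, 1.38 and 1.39 in shYthdf2 and 1.22, 1.05 and 1.27 in shCtrl. For Apc and Apc2, its neuronal relative, it was -1.07, -1.24 and -1.18 against -1.47, -1.41 and -1.30. The mean shift was 0.57, 0.27 and 0.23 for the 3 pairs and 0.71, 0.23 and 0.26 without replicate 2. The members Axin2, Gsk3b and Apc themselves had log2 fold changes of 0.28, -0.04 and -0.03. Their paralogs Axin1, Gsk3a and Apc2 had -0.30, -0.30 and -0.27, so for Gsk3b and Apc the shift lay mostly in the paralog. Per length, the shCtrl level of Apc2 was 3.75 times that of Apc, Axin1 was at 1.72 times Axin2 and Gsk3a at 1.50 times Gsk3b.

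Among the 20 nuclear cofactors, all tested, 0 passed the adjusted threshold in edgeR and limma-voom and 3 in DESeq2, beside 8.5% of all genes. At an unadjusted p under 0.05, 3 were higher and 5 lower in shYthdf2, beside 9.50% and 10.6% of all genes. The median log2 fold change was -0.17. It was -0.09 without shYthdf2 replicate 2 and -0.10 without shCtrl replicate 1 or 3. Bcl9l, which ties β-catenin to Pygopus, had 3592, 3150 and 3634 normalized counts in shYthdf2 and 5157, 4721 and 4982 in shCtrl. Its log2 fold change was -0.52 with an SE of 0.10 (edgeR adjusted p = 0.0598). With the replicate block the edgeR adjusted p of Bcl9l was 0.0450, and over the 15 alternatives it lay between 2.02e-08 and 0.303. Of the Groucho co-repressors that sit on TCF factors without β-catenin, Tle4 had 1144, 1114 and 1129 against 720, 842 and 656 (log2 fold change 0.61, edgeR adjusted p = 0.0616). Tle1 had 773, 800 and 799 normalized counts against 1810, 944 and 1799 (log2 fold change -0.94, edgeR adjusted p = 0.102), with shCtrl replicate 2 well below the other controls.

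Of 17 further feedback and target genes, 12 were tested, and the rest, among them the secreted inhibitors Notum, Dkk1, Dkk4 and Wif1, had too few counts. Znrf3 passed the adjusted threshold. It encodes a ubiquitin ligase that removes Frizzled receptors from the cell surface, and it had 935, 851 and 954 normalized counts in shYthdf2 against 462, 529 and 407 in shCtrl. Every KD library was well above every control (log2 fold change 0.97 with an SE of 0.13, edgeR adjusted p = 0.0447). The call on Znrf3 was lost when replicate 1 or 3 of either group was left out, with an edgeR adjusted p of 0.286 and 0.269 without shYthdf2 replicates 1 and 3 and of 0.258 and 0.241 without shCtrl replicates 1 and 3, and its log2 fold change was then 0.88 to 0.96. In each of these fits 0 of all genes passed the adjusted threshold, so the loss was not particular to Znrf3. In limma-voom the adjusted p of Znrf3 was 0.0528, and over the 15 alternatives it lay between 7.52e-09 and 0.286. The list did not share one direction: at an unadjusted p under 0.05, 2 were higher and 3 lower, beside 9.50% and 10.6% of all genes. The median log2 fold change was 0.23. It was 0.06 without shCtrl replicate 1, 0.08 without shCtrl replicate 3, 0.10 without shYthdf2 replicate 2 and 0.35 without shCtrl replicate 2. Myc, a growth-promoting transcription factor, had 166, 174 and 172 normalized counts in shYthdf2 and 487, 269 and 514 in shCtrl (log2 fold change -1.31, edgeR adjusted p = 0.0594). Bambi, a decoy receptor of the TGF-β family, had 7.32, 7.76 and 13.8 against 23.9, 16.5 and 23.1 (log2 fold change -1.13, edgeR adjusted p = 0.165). Nkd2, the paralog of Nkd1, was also lower (log2 fold change -1.24, edgeR adjusted p = 0.1935), with overlapping groups. Ascl2, a transcription factor, was higher (log2 fold change 0.92, edgeR adjusted p = 0.173). Bambi and Ascl2 had few reads, with 7 to 27 and 8 to 20 counts.

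The part of β-catenin that is bound to cadherins at cell contacts was represented by 6 genes, of which 0 passed the adjusted threshold in edgeR, DESeq2 or limma-voom. At an unadjusted p under 0.05, 1 was higher and 1 lower, beside 9.50% and 10.6% of all genes. Cdh2, N-cadherin, had 3815, 3923 and 4026 normalized counts in shYthdf2 and 3332, 3249 and 3522 in shCtrl (log2 fold change 0.22, edgeR adjusted p = 0.217). Jup, plakoglobin, the closest relative of β-catenin, had 2477, 3638 and 2557 against 4115, 3358 and 3960 (log2 fold change -0.40, edgeR adjusted p = 0.244), with overlapping groups. Ctnnd2, δ-catenin of neurons, had 3777, 4692 and 3788 against 4855, 4337 and 4810 (log2 fold change -0.19, edgeR adjusted p = 0.410).

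**Figure D5:**
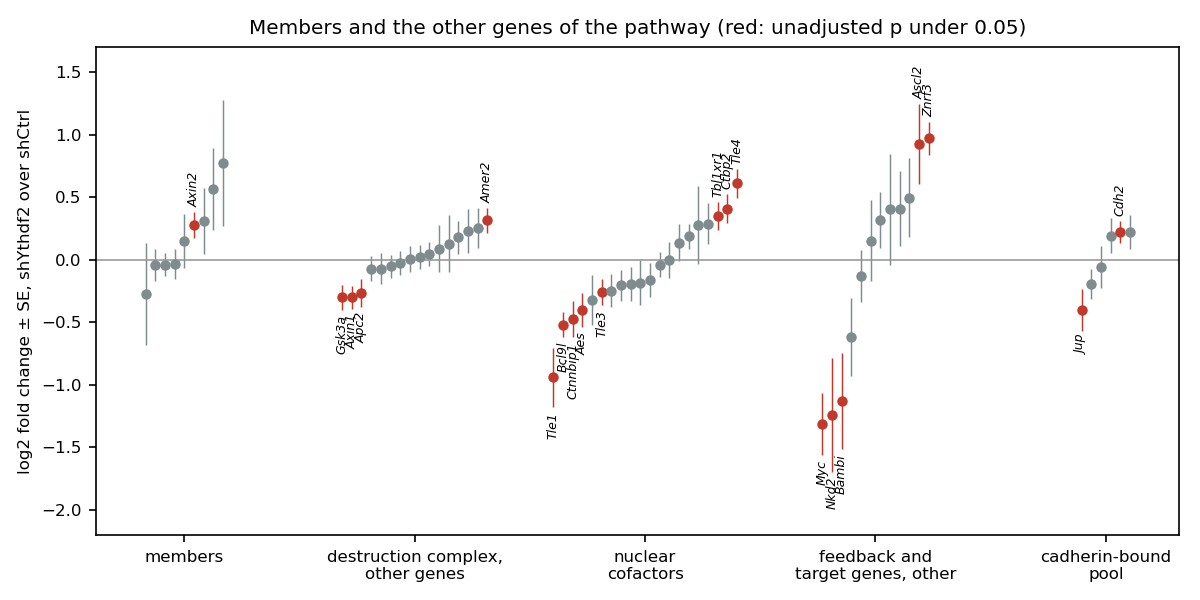
Log2 fold change with its SE for the members and 4 lists of other pathway genes, shYthdf2 over shCtrl, sorted within a list, in red with a name where the unadjusted edgeR p was under 0.05. Each list holds genes on both sides of 0, and Znrf3 alone is past the adjusted edgeR threshold.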

How the data were processed

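The authors deposited a table of whole-number counts per gene, without normalization. By the study's methods, HISAT and TopHat2 mapped the reads to GRCm38 and HTSeq counted them per gene, whereas the submitters' processing notes name Bowtie 0.12.2 and mm9. Strand use in counting is not given in the sources used here. The test was that of edgeR 4.0.16, run in R 4.3.3 (filterByExpr with a minimum count of 10, TMM, quasi-likelihood test), with Benjamini-Hochberg adjustment over the 17214 genes tested. The filter kept 99.8% of counts. Normalized counts are at a common library size. Fits were tested on simulated data. Alternatives were RLE factors, unscaled library sizes, DESeq2 1.42.0, limma-voom (limma 3.58.1), 2 other filters, the replicate block, a term for replicate 2 and libraries left out. The deviations of same-numbered libraries from their group means correlated at 0.250, 0.361 and 0.305. Libraries with different numbers were not compared in this way, so this check cannot show whether the numbers pair the libraries. Depth was 17246821 to 21546595 counts per library, which limits genes with few counts. Promoters were from RefSeq, transcripts and symbols from GENCODE on GRCm38.
Members, gene lists and alternatives were chosen with earlier results of these data known. The rule for named genes was all members, Ythdf2, and of each pathway list the genes past the adjusted threshold, otherwise the 3 with the smallest p. Of the marker lists, the first 2 genes were to be named, but not all of them are printed. Apc2, Myc, Bambi, Nkd2, Ascl2, Slc1a2, Cbln3, Rora, Barhl1 and Ptch1 were chosen after their values were seen. Plots were drawn with matplotlib 3.10.9.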

Additional observations from a re-analysis of the deposited data

How the results depend on the processing

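Of 134 refits of the members' fold changes under 15 alternatives, 118 kept the direction and the side of the threshold, 9 newly passed it and 7 turned the sign, those of Ctnnb1, Apc and Tcf7 given above (0.0268, 0.0026 and 0.0437 for Ctnnb1, 0.002, 0.0535 and 0.0089 for Apc, and 0.0094 for Tcf7), all at estimates near 0. With single libraries left out, the estimates ranged from -0.16 to 0.0437 for Ctnnb1, from -0.0924 to 0.0535 for Apc and from -0.51 to 0.0094 for Tcf7. The cause was not tested. The number of members past the adjusted threshold was 0, except 1 with a batch term for replicate 2 (beside 22.1% of all genes), 6 without replicate 2 of both groups (52.7%) and 0 to 2 with single libraries left out (18.3% without shCtrl replicate 2, where it was 2). At an unadjusted p under 0.05 it was 1 (beside 20.1% of all genes), against 0 without the filter, 2 with the term for replicate 2 (39.5%), 6 without replicate 2 of both groups (57.6%) and 0 to 4 with single libraries left out (34.0% without shCtrl replicate 2, where it was 4). Groups did not overlap for 1 member (beside 26.0% of all genes), 7 without replicate 2 of both groups (76.0%) and 1 to 5 with single libraries left out (53.9% without shCtrl replicate 2, where it was 5). Over all genes, 104 passed the adjusted threshold, against 1321 with DESeq2, 24 with limma-voom, 639 without the filter, 3799 with the term for replicate 2, 9186 without replicate 2 of both groups and 0 to 3239 with single libraries left out.

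In the fit with a replicate block, 232 genes (1.35%) and 0 members passed the adjusted threshold. At an unadjusted p under 0.05, 2 members passed, Axin2 and Apcdd1, beside 31.6% of all genes. Among the pathway genes named, the block changed the call of Bcl9l and no other.

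The median log2 fold change of the other feedback and target genes was -0.14 without the filter, when genes with almost no reads entered it. With 3 libraries a group, Tcf7, Tcf7l1, Tcf7l2, Nkd1 and Apcdd1 have intervals too wide to show a difference of the size seen for Axin2. The intervals of Ctnnb1 and Apc also reach past that size on the lower side. Among the other members tested, only the interval of Gsk3b stays within it. Lef1 has too few reads to be tested.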
